A study of Mus musculus with 6 samples.

Results

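Plasminogen activation and its inhibitors, together with the tissue inhibitors of metalloproteinases (TIMPs), were followed in whole mouse corneas before and after an alkali burn. The group was set by a list of 9 gene symbols, and each was found on 1 row of the authors' gene table, 9 of 28539 loci in all. RNA-seq libraries came from polyadenylated RNA of whole corneas of female C57BL/6J mice, 6-8 weeks old by their labels. The groups were uninjured corneas (day 0), corneas 5 days after the burn (day 5) and corneas 15 days after it (day 15), with 2 samples in each of 3 groups. An alkali burn is a chemical injury after which blood vessels grow into the normally clear cornea. The labels describe day 15 as a stage of regression, carry no genotype beyond the strain, and leave it unstated if a group's samples are different animals, so no spread between animals is known.

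The values are FPKM, read fragments corrected for transcript length and for library size, so that levels of different genes can be set side by side per length. The authors gave 1 FPKM per group, pooled over its samples, with an interval around it whose level the file does not state. Values are given below as FPKM with that interval in parentheses. No spread between samples can be shown and no test was possible. A gene is called higher and apart, or lower and apart, under 3 conditions. Its intervals had to be clear of each other, the higher group needed an FPKM of 1 or more, and the log2 ratio, taken on FPKM + 1, had to reach 1 in either direction. Both comparisons with day 0 rest on the same uninjured samples.

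Plasminogen is a circulating proenzyme that urokinase (uPA, from Plau) and tissue plasminogen activator (tPA, from Plat) cut into plasmin, a serine protease that dissolves fibrin and activates several metalloproteinase proenzymes. The urokinase receptor (from Plaur) holds urokinase at the surface of leukocytes and moving epithelial cells, while serpins such as Serpine2 and Serpinb2 trap the activators. TIMPs bind the active site of matrix metalloproteinases, and Timp3, which stays bound to the matrix, also restrains several ADAM and ADAMTS proteases. In mice without plasminogen, corneal epithelial wounds heal poorly and keep fibrin.

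Promoters are shown for Plaur, Serpinb2 and Timp1, the 3 members with the largest ratios of day 5 to day 0. The sequences are from RefSeq on GRCm38.p6, run 5′ to 3′ on the strand of the gene and hold 250 bases before and 50 bases from the annotated start. Capitals mark matches to an AP-1-like motif, TGANTCA, on either strand.
Plaur (chr7:24462233-24462532, + strand): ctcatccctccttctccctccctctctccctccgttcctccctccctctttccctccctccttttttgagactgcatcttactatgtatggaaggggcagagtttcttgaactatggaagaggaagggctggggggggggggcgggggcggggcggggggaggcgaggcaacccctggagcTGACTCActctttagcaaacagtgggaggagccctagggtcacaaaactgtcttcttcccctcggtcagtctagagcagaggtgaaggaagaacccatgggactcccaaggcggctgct
Serpinb2 (chr1:107511173-107511472, + strand): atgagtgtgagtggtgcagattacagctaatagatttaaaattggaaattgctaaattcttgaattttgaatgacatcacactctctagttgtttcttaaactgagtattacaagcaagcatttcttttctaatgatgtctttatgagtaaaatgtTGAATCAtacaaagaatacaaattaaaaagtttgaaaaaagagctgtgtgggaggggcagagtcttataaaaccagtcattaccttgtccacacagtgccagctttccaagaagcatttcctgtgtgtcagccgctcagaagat
Timp1 (chrX:20869916-20870215, + strand): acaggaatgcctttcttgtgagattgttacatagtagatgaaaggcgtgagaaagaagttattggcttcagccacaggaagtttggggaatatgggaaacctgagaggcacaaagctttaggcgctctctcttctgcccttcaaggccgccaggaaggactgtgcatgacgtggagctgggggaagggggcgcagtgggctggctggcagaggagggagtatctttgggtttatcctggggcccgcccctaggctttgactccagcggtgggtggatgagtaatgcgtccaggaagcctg
Plaur had 1 AP-1-like match, TGACTCA, 69 bases before the start, and Serpinb2 had 1, TGAATCA, 94 bases before it. Timp1 had none in this window. Promoters of 7 of the 9 members were matched in the table, with Plau and Plat not among them, and of the 7 only Plaur and Serpinb2 held the AP-1-like motif. It was present in 7.81% of 32851 promoters of 300 bases. A TATA box (TATAAA) stood in the Serpinb2 promoter, 29 bases before the start, against 13.6% of all promoters. A GC box (GGGCGG, overlapping matches counted) stood in those of Plaur (3 matches), Serpine2 (6), Timp3 (2), Timp2 (1) and Timp1 (1), against 35.7% of all promoters. A STAT-like motif (TTCNNNGAA) was found in that of Serpinb2, overlapping no other match, against 8.30% of all promoters. Another Serpinb2 promoter, with its start at 107511510, held the same AP-1-like, TATA and STAT-like matches 181, 116 and 77 bases before that start. These matches are a description of the letters only.

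At day 5, 4 of the 9 genes were higher and apart from day 0 and none was lower and apart. They were the activators Plau and Plat, the receptor Plaur and the inhibitor Serpinb2. Over all loci that reached an FPKM of 1 in at least one of the days, 3.42% were higher and apart and 2.5% were lower and apart. At day 15, Plaur and Serpinb2 were still higher and apart from day 0, 2 of the 9 genes, against 2.91% of all loci, with none lower and apart against 1.81%. When day 15 was set against day 5, Plaur and Plat were lower and apart, 2 of the 9 genes, against 0.388% of all loci, and none was higher and apart against 0.395%. The median log2 ratio over the 8 genes with FPKM of at least 1, which leaves out Timp4, was 1.58 for day 5 over day 0, 1.08 for day 15 over day 0 and -0.26 for day 15 over day 5. The same medians over all loci were -0.09, -0.10 and -0.01. If intervals were not used, 6 of the 9 genes would be at least 2-fold higher on this scale at day 5 than at day 0, against 10.8% of all loci (11.1% lower). At day 15 there would be 4 against day 0, beside 8.36% of all loci (9.43% lower), and 2 lower against day 5, beside 3.35% of all loci (2.62% higher). In whole tissue, fewer cells of a type and less RNA per cell cannot be told apart.

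**Figure D1:**
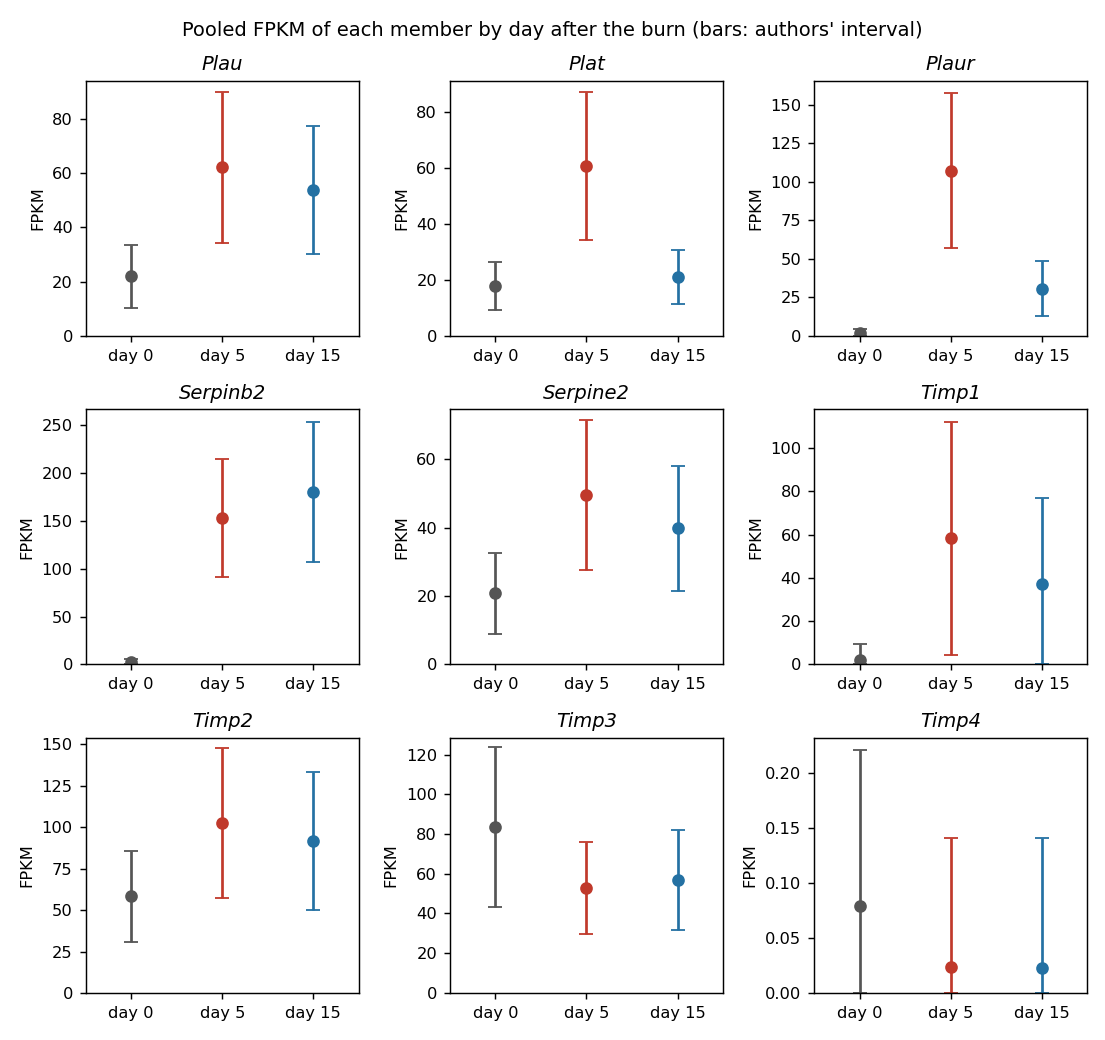
Pooled FPKM of each of the 9 genes (vertical axes, each with its own scale) at day 0, day 5 and day 15, with bars for the authors' interval. Plaur and Serpinb2 stand near 0 at day 0 and far above it at day 5, Plat is high at day 5 only, and the Timp1 bars are wide.

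Plau, which encodes urokinase (chromosome 14, 20836387 to 20843388 on mm10), stood at 22.0 (10.3 to 33.7) at day 0, 62.0 (34.2 to 89.9) at day 5 and 53.6 (30.0 to 77.2) at day 15. The day 5 and day 0 intervals missed each other narrowly, at 34.2 and 33.7, and the day 15 interval overlapped both. The ratio was 2.82-fold for day 5 over day 0 and 2.44-fold for day 15 over day 0. With each value at the end of its interval nearest the other, the day 5 ratio would be 1.02-fold.

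Plat, which encodes tissue plasminogen activator (chromosome 8, 22757744 to 22782848), had 17.8 (9.28 to 26.4) at day 0, 60.7 (34.2 to 87.1) at day 5 and 21.1 (11.4 to 30.9) at day 15. It was apart at day 5 from both other groups, while the day 15 and day 0 intervals overlapped. It was 3.40-fold higher at day 5 than at day 0, and 2.87-fold lower at day 15 than at day 5. The activators stood side by side at day 5, with Plau at 1.02 times Plat, and at day 15 Plau was at 2.53 times Plat, with intervals that still overlapped slightly.

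Plaur, the receptor that gathers urokinase at the cell surface (chromosome 7, 24460928 to 24475961), had 2.21 (0 to 4.48) at day 0, 107 (57.1 to 158) at day 5 and 30.7 (12.9 to 48.6) at day 15. All 3 intervals were clear of each other, which held for no other gene of the 9. The day 5 value was 48.5-fold that of day 0, and 12.7-fold with both values at the near ends of their intervals. At day 15 it was 13.9-fold higher than at day 0 and 3.49-fold lower than at day 5. The receptor stood at 0.101 times the FPKM of its ligand Plau at day 0, 1.73 times at day 5 and 0.573 times at day 15. In the log2 ratio of day 15 over day 5, 0.715% of loci lay below Plaur and 1.21% below Plat.

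Serpinb2, plasminogen activator inhibitor type 2, a serpin made by activated macrophages and by squamous epithelia (chromosome 1, 107500927 to 107525601), had 2.77 (0.249 to 5.29) at day 0, 153 (91.7 to 215) at day 5 and 180.3 (107 to 254) at day 15. Days 5 and 15 overlapped each other and were both apart from day 0. The ratios were 55.3-fold at day 5 and 65.1-fold at day 15, and at the near ends of the intervals 17.3-fold and 20.2-fold. It was the highest of the 9 genes at days 5 and 15, with an interval that overlapped the next in order. Set against day 5, the day 15 value had a log2 ratio of 0.23. The row begins before the annotated gene (107511423 to 107535478) and ends inside it.

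Serpine2, protease nexin-1, a serpin that traps thrombin, urokinase and plasmin (chromosome 1, 79794321 to 79858665), had 20.8 (8.93 to 32.6) at day 0, 49.6 (27.7 to 71.5) at day 5 and 39.8 (21.6 to 58.1) at day 15. All 3 intervals overlapped. The value was 2.39-fold higher at day 5 and 1.92-fold higher at day 15 than at day 0, and neither difference was apart.

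**Figure D2:**
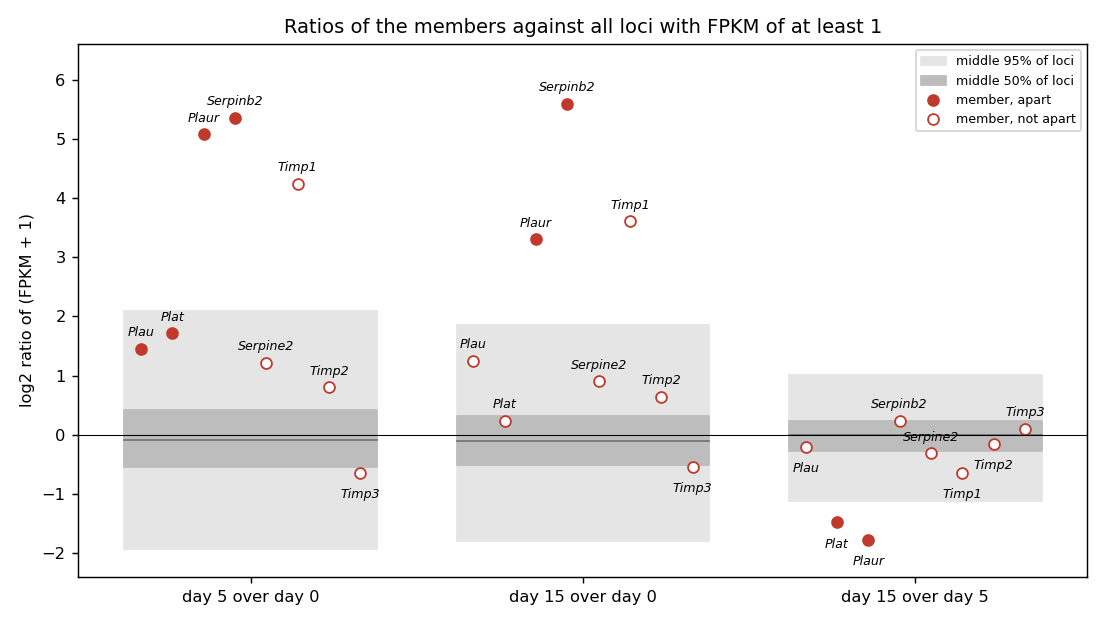
Log2 ratios of (FPKM + 1) of the 8 genes with FPKM of at least 1 (points, filled where apart) for each comparison, over light and dark grey bands that hold the middle 95% and 50% of all loci that reached an FPKM of 1, with a line at their median. For day 5 over day 0, Serpinb2 (5.35), Plaur (5.08) and Timp1 (4.24) lie above the top of the band, 2.09, and Timp3 is below 0 at -0.65.

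The TIMPs differed from each other. Timp1, the injury-inducible member of the family (chromosome X, 20870166 to 20874735 in GENCODE M21), had 2.13 (0 to 9.52) at day 0, 58.2 (4.29 to 112) at day 5 and 37.0 (0 to 76.7) at day 15. The value was 27.3-fold higher at day 5 and 17.4-fold higher at day 15 than at day 0, and neither was apart, since the intervals overlapped. Of all loci, 99.7% had a lower log2 ratio of day 5 over day 0 than Timp1.

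The Timp1 intervals were wider than those of other loci of like level. At day 5 the upper bound lay 92.6% above the FPKM, and 95.1% of 1902 loci within 2-fold of its level had a narrower one, with a median of 47.5%. At day 15 the bound lay 107% above, against a median of 48.5%, and at day 0 347% above, against 82.1%. The other 7 members with FPKM of at least 1 had day 5 bounds of 40.2% to 46.8%. The row is 15.8 times as long as the annotated Timp1 gene, which lies inside the span of Syn1 on the opposite strand. It carries the same coordinates as the rows of Araf, Syn1 and Mir5617. Araf, a kinase, had 67.0 (27.0 to 107) at day 0, 55.9 (18.4 to 93.4) at day 5 and 57.7 (22.9 to 92.5) at day 15, and Syn1, a synaptic vesicle protein, stood at 0.271, 0.728 and 0.204. The labels give no strandedness, so it is unknown if strand was used to separate the reads of genes that overlap on opposite strands.

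**Figure D3:**
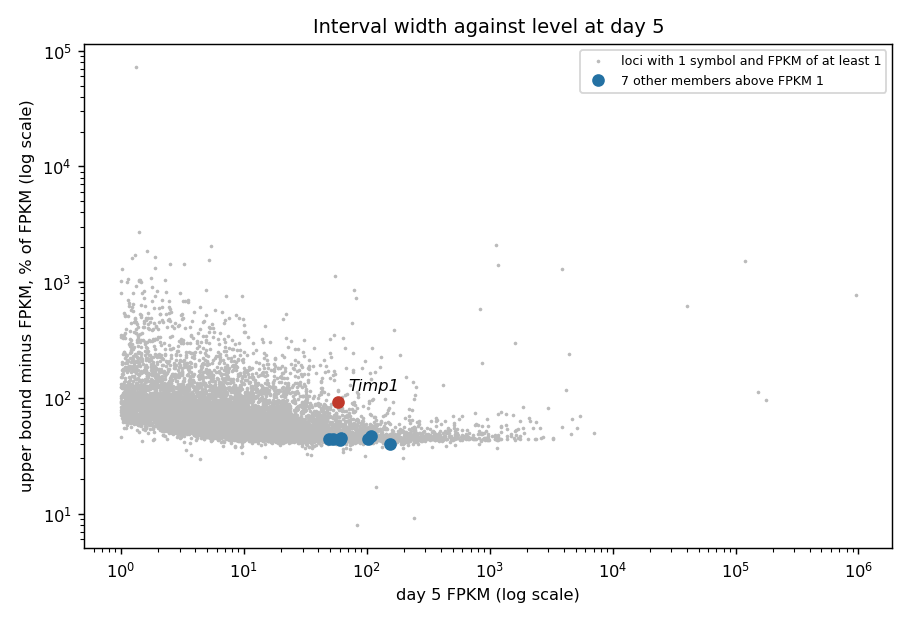
Distance from the FPKM to the upper bound of the authors' interval as a percent of the FPKM (vertical, log scale) against FPKM (horizontal, log scale) at day 5, for loci with 1 symbol and FPKM of at least 1. Timp1 (red), at 92.6%, lies above the 7 other members (blue), which lie between 40.2% and 46.8%.

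Timp2, which inhibits metalloproteinases and also takes part in the activation of Mmp2 by Mmp14 (chromosome 11, 118301061 to 118355411), had 58.3 (30.8 to 85.8) at day 0, 103 (57.3 to 148) at day 5 and 91.9 (50.2 to 134) at day 15. All 3 intervals overlapped, with ratios of 1.76-fold for day 5 over day 0 and 1.57-fold for day 15 over day 0.

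Timp3, the matrix-bound member (chromosome 10, 86300372 to 86349506 in GENCODE M21), had 83.5 (43.4 to 124) at day 0, 52.9 (29.7 to 76.1) at day 5 and 56.9 (31.8 to 82.0) at day 15. It was the only one of the 8 genes with FPKM of at least 1 whose values at days 5 and 15 were below day 0, and its intervals overlapped. Its log2 ratios to day 0 were -0.65 at day 5 and -0.55 at day 15, values that 20.6% and 23.0% of all loci lay below.

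Timp4 (chromosome 6, 115241892 to 115252205 in GENCODE M21) stood at 0.0788 (0 to 0.221) at day 0, 0.0239 (0 to 0.141) at day 5 and 0.0223 (0 to 0.141) at day 15. These values lie below the level used for comparison, and no ratio is drawn from them. Like Timp1, Timp3 and Timp4 lie inside synapsin genes on the opposite strand and share the coordinates of those rows. Syn3 stood at 7.13 (0 to 43.0) at day 0, 4.41 (0 to 31.3) at day 5 and 2.61 (0 to 21.0) at day 15 and had intervals that reached 0 on every day, and Syn2 stayed between 0.137 and 0.193.

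The order of the 9 levels differed between the uninjured and the burned corneas. At day 0 Timp3 and Timp2 were highest, Plau, Serpine2 and Plat followed, and Serpinb2, Plaur, Timp1 and Timp4 were lowest. Only the step between Plat and Serpinb2 had intervals clear of each other. At day 5 the order was Serpinb2, Plaur, Timp2, Plau, Plat, Timp1, Timp3 and Serpine2, and neighbours in it overlapped except for the step down to Timp4. At day 15 it was Serpinb2, Timp2, Timp3, Plau, Serpine2, Timp1, Plaur and Plat, again with only the step to Timp4 clear. Against all single-symbol loci with FPKM of at least 1, Serpinb2 was above 17.3% at day 0, 95.8% at day 5 and 96.2% at day 15, and Plaur above 13.1%, 94.2% and 79.5%.

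Summed over genes, the make-up of each inhibitor group differed between days. The summed FPKM of Serpine2 and Serpinb2, the 2 activator inhibitors among the 9 genes, was 23.6 at day 0, 203 at day 5 and 220.1 at day 15. Serpinb2 held 11.8%, 75.5% and 81.9% of it, and Serpine2 the remaining 88.2%, 24.5% and 18.1%. Plau and Plat together summed to 39.8, 123 and 74.7, so that the inhibitor sum was 0.592 times the activator sum at day 0, 1.65 times at day 5 and 2.94 times at day 15. The added bounds of the inhibitors ran from 9.18 to 37.9, 119 to 286 and 129 to 312 on the 3 days, and those of the activators from 19.5 to 60.0, 68.4 to 177 and 41.5 to 108. These are ratios of RNA levels, not of active protein.

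The summed TIMP level was 144 at day 0, 214 at day 5 and 186 at day 15, a ratio of 1.48 for day 5 over day 0. Timp3 made up 58.0% of it at day 0, 24.7% at day 5 and 30.6% at day 15, while Timp1 made up 1.48%, 27.2% and 19.9%. The Timp2 share was 40.5%, 48.0% and 49.5%. The bounds of the 4 genes, added up, ran from 74.2 to 219 at day 0, 91.3 to 336 at day 5 and 82.0 to 292 at day 15.

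**Figure D4:**
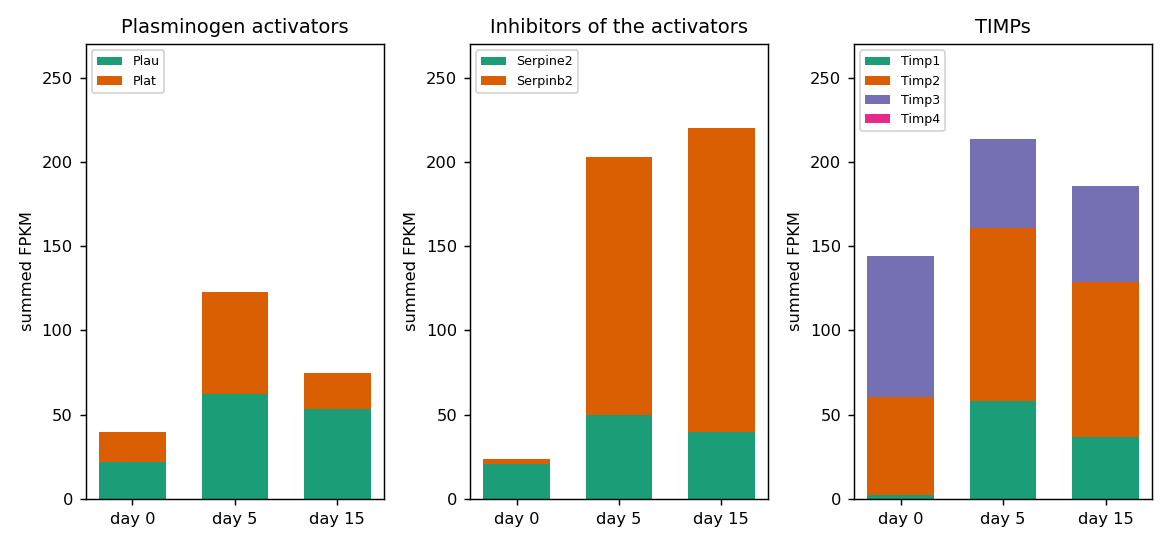
Summed FPKM (vertical axes, the same scale in each panel) of the plasminogen activators, the activator inhibitors Serpine2 and Serpinb2 and the TIMPs at day 0, day 5 and day 15, split by gene. Serpinb2 fills most of the inhibitor bar at days 5 and 15 (75.5% and 81.9%), and Timp3 most of the TIMP bar at day 0 (58.0%).

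Matrix metalloproteinases, which TIMPs inhibit, and a list of ADAM and ADAMTS proteases were set beside the TIMPs. Of 23 matrix metalloproteinases, 15 had FPKM of at least 1 at day 5 or day 0, and 6 were higher and apart at day 5 with none lower and apart, beside 3.42% and 2.5% of all loci. The median log2 ratio of the 15 was 1.28. The 23 genes summed to 166 at day 0, 640 at day 5 and 486 at day 15, which was 1.15, 2.99 and 2.61 times the TIMP sum. Their added bounds ran from 76.5 to 261, 316 to 965 and 242 to 733, and overlapped those of the TIMPs on every day. These too are ratios of RNA levels, not of active protein. Mmp3, stromelysin-1, which held more of the day 5 sum than any other metalloproteinase, had 63.4 (29.6 to 97.2), 338 (167 to 509) and 177 (91.7 to 262), and was apart at day 5. Mmp13, a collagenase, had 0.551 (0 to 1.29), 45.9 (22.7 to 69.1) and 99.95 (48.0 to 152), and was higher and apart from day 0 at both times. Timp1 was at 3.86 times Mmp13 at day 0, 1.27 times at day 5 and 0.370 times at day 15. These ratios are loose, since Mmp13 was below an FPKM of 1 at day 0 with an interval down to 0. The Timp1 interval also reached 0 at days 0 and 15.

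Mmp9, a gelatinase of neutrophils and wounded epithelium, was 47.1-fold higher at day 5 and 20.3-fold at day 15, over an FPKM of 0.176 at day 0. Mmp12, the macrophage elastase, was 19.0-fold and 33.7-fold higher. The membrane-bound Mmp14, which with Timp2 activates Mmp2, had 19.2 (10.004 to 28.3), 66.3 (37.0 to 95.6) and 40.2 (21.3 to 59.2), and was apart at day 5. Mmp2 itself had 55.0 (28.2 to 81.7), 122 (66.4 to 178) and 105 (56.8 to 153) and was not apart, and Timp2 stayed at 1.06, 0.840 and 0.876 times Mmp2. At day 15, 4 of 14 metalloproteinases compared were higher and apart from day 0, among them Mmp15 (3.13-fold), beside 2.91% of all loci. Only Mmp28, an epithelial member, was lower and apart, at 2.91 against 14.0, beside 1.81% of all loci. No metalloproteinase was apart between day 15 and day 5.

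Of 13 ADAM and ADAMTS proteases, 7 were higher and apart at day 5, beside 3.42% of all loci. At day 15, 3 of the 11 compared were higher and apart, beside 2.91% of all loci. None was lower than day 0 and apart at either time. The day 5 median of the log2 ratios was 1.40. The row shared by Adam8, a leukocyte sheddase, and 6430531B16Rik had 51.3 (28.4 to 74.2) at day 5 and 23.8 (13.2 to 34.3) at day 15, against 0.613 at day 0. Adamts4 and Adamts5, which cut aggrecan and are inhibited by Timp3, had 2.26 and 6.01 at day 5, against 0.0864 and 1.08 at day 0, both higher and apart. Adamts1 was 5.25-fold higher at day 5 than at day 0, and was lower and apart at day 15 when set against day 5. Adam17, the sheddase of tumour necrosis factor and a target of Timp3, had 22.1 (11.8 to 32.4), 27.9 (15.2 to 40.5) and 26.2 (13.7 to 38.6) and was not apart. Of 7 partners of the TIMPs on a further list, such as Reck and Cd63, none was apart in any comparison.

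Other genes of plasminogen handling were mostly not apart. The list held 25 genes on 26 rows, 9 of them below an FPKM of 1 at both day 5 and day 0. Of the other 17 rows, 2 were higher and apart at day 5 and 1 was lower and apart, beside 3.42% and 2.5% of all loci. The median of the log2 ratios was 0.25 at day 5 and 0.30 at day 15. Those higher were Itgb2, the leukocyte integrin chain (13.1 at day 5 against 1.63 at day 0), and F13a1, the clotting factor that cross-links fibrin (8.82 against 1.66). Itgb2 and F13a1 were also higher and apart at day 15, and 1 gene was lower and apart, of 18 rows compared, beside 2.91% and 1.81% of all loci. A2m, a broad protease trap that also takes up plasmin, was lower and apart, at 3.28 (1.53 to 5.04) at day 5 and 8.27 (4.35 to 12.2) at day 15, against 347 (146 to 548) at day 0. Plg, which encodes plasminogen, and the fibrinogen chains Fga and Fgg, all made mainly in liver, were listed at 0 in every group, as was Serpina5, and Fgb was at most 0.0989. None of the list was apart between day 15 and day 5. The plasminogen-binding pair Anxa2 and S100a10 was abundant throughout, with Anxa2, on a row shared with Mir3109, between 375 and 462 and S100a10 between 918 and 1608, and neither was apart.

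**Figure D5:**
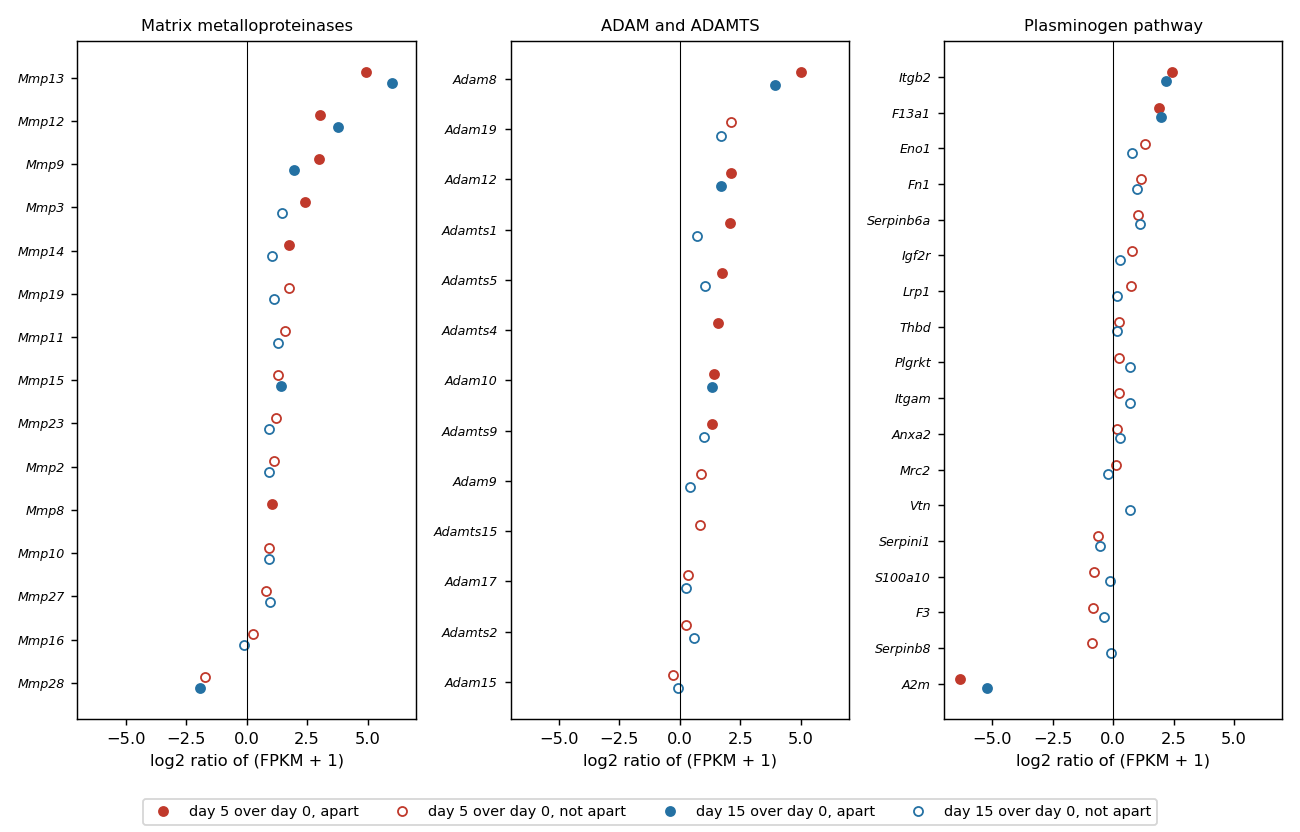
Log2 ratios of (FPKM + 1) to day 0 at day 5 (red) and day 15 (blue) for the metalloproteinases, the ADAM and ADAMTS proteases and other genes of the plasminogen pathway with FPKM of at least 1, filled where apart. Most metalloproteinases lie above 0, Mmp28 lies below it, and A2m is far below it at -6.34 and -5.23.

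Markers of cells that enter a burned cornea, of its own cells and of nearby tissues differed in the same samples. Beside the counts against day 0 below, 3.42% of all loci were higher and 2.5% lower and apart at day 5. At day 15 these shares were 2.91% and 1.81%. For day 15 against day 5 they were 0.395% and 0.388%. Of 7 neutrophil rows with FPKM of at least 1, 5 were higher and apart at day 5, as were 4 of 6 at day 15, and the marker sum was 37.8 at day 0, 1651 at day 5 and 866 at day 15, with Elane at 0 in every group and Mpo at 0, 0.0194 and 0. Most of that sum was Ltf, and without its rows it was 22.1, 403 and 104. Of 8 macrophage markers, 3 were higher and apart at day 5 and 5 at day 15, and the sum without the merged Cd68 row was 85.7, 504 and 765. Lyz2 held most of that sum, at 68.3, 385 and 685. From day 5 to day 15, 6 of the 8 had higher values and 2 had lower ones. Only Cd14 was apart between these days, lower at day 15 (19.9 against 75.1). Of 8 blood endothelial markers, 4 were higher and apart at each time, with sums of 21.3, 80.3 and 82.1. Epithelial markers summed to 30812 at day 0, 7376 at day 5 and 11445 at day 15. Without rows that merge several genes, the sums were 22565, 2245 and 3017. Krt12 had no usable day 0 value and counts as 0 in the day 0 sums. Slurp1 (11780, 1.12 and 0.971) and Aldh3a1 (9150, 303 and 866) held most of the day 0 sum without merged rows. Of 8 epithelial rows with usable values on both days, 6 were lower at day 5 than at day 0. The 2 higher ones were Krt14 (180, 500 and 760) and Clu (129, 780 and 477). At day 5, 2 epithelial markers were lower and apart (Aldh3a1 and Slurp1) and 1 was higher and apart (Clu). Keratocyte and fibroblast markers summed to 15118.5, 5604 and 7145, and without Aldh3a1, which is on both lists, to 5969, 5301 and 6280. Of these 11 markers, 4 were higher and apart at day 5, among them Col3a1 and Thy1, and 3 were lower and apart, among them Kera. Lens markers were at 351, 49.4 and 238, muscle markers at 525, 332 and 70.5 and corneal endothelial markers at 614, 232 and 199.98. Of 5 lens markers compared, 4 were lower and apart at day 5 than at day 0, and 3 were higher and apart at day 15 than at day 5. Of 5 muscle markers compared, 4 were lower and apart at day 15 than at day 5. Lens and muscle lie outside the cornea, and whether the tissue taken differed between groups was not tested. The part of these cells in the values of the 9 genes was not tested.

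The loci nearest in pattern were sought for 4 of the genes, by Euclidean distance between mean-centred log2 (FPKM + 1) values over the 3 groups. Candidates were loci with a single symbol, usable values on every day and an FPKM of at least 5 on some day. Genes on any list used here, such as the metalloproteinases and cell markers, were left out, so nearer loci may exist among them. With 3 points per locus many loci lie close, and 549 of 9115 lay within 0.5 of Plau. Nearest to Plau were Uqcrq, Gimap6 and Acp5, at distances of 0.0223 to 0.0288, the Acp5 intervals reaching down to 0 on every day. Nearest to Plaur were Srgn, the proteoglycan core of leukocyte granules (10.6 at day 0, 367 at day 5 and 115 at day 15), Ccl4, a chemokine, and Hba-a2, a globin, with 8 loci within 0.5. Nearest to Timp1 were Clec2f, Dynap and Kcnj15, with 14 loci within 0.5. Nearest to Serpinb2, with only 3 within 0.5, were Gabrp, a GABA receptor subunit (0.215 at day 0, 53.7 at day 5 and 62.6 at day 15), Cxcl17 and Aqp4, the Cxcl17 intervals also reaching down to 0 on every day.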

How the data were processed

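The deposited values are FPKM from a gene table of the authors, with 1 value, interval and status per group and 0 columns for single samples, so that no test was run and read depth is unknown. Cuffdiff, Cufflinks 2.2.1, TopHat2 2.1.0, Bowtie2 2.2.6 and mm10 appear in the submitters' processing notes, with no role given. The RNA kit's strandedness and the gene annotation are not given in the sources used here. Row coordinates, counted from 0 in the file, are printed 1-based.

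From the FPKM, log2 ratios were computed after adding a pseudocount of 1, on which scale low genes show smaller differences than they have. Folds are plain FPKM quotients. The rule for apart was run over all 28539 loci, and the share of loci called is printed beside the counts of members. Marker sums without Ltf or Aldh3a1 were added after the data were seen. Gene spans are from GENCODE M21 (GRCm38) and promoters from RefSeq, searched on both strands. The members and lists were chosen with earlier results of these data known. Named genes were the members, up to 5 genes apart per list and comparison, the synapsin genes and the 3 nearest loci. Others, such as Plg, Mmp2, Adam17, Anxa2 and S100a10, were named after their values were seen. An item of the pathway list is not reported here. Alternatives varied the pseudocount, filter, fold, intervals, scaling and summing of rows. Python 3.11.15, numpy 2.4.6, pandas 2.3.3 and matplotlib 3.10.9 were used.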

Additional observations from a re-analysis of the deposited data

How the results depend on the processing

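The counts of members apart were the same under every alternative except where intervals were not used, with the same genes called. Without the interval rule, 6 members were at least 2-fold higher at day 5 than at day 0 (Serpine2 and Timp1 joining) and 4 at day 15 (Plau and Timp1 joining), and day 15 against day 5 gave the same 2. Scaling by the median ratio raises log2 FPKM ratios of day 5 over day 0 by 0.10, and less for low genes once 1 is added to the FPKM, and no member changed its call or direction under it. The log2 ratio of Timp4, which is below the filter, moved with a pseudocount of 0.1, to -0.53 at day 5 and -0.55 at day 15. Counts over the other gene lists moved by over 1.5 times in 29 instances and not in 547, mostly without the interval rule. None of 24 rescaled ratios of a sum between days moved by over 1.5 times. The TIMP ratio of day 5 over day 0 went from 1.48 to 1.60 with the median ratio. Rescaling multiplies all such ratios of a comparison by the same factor, so this says nothing about their uncertainty. It was added after the data were seen.

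No paired analysis was possible because the columns hold 1 pooled value per group and carry no replicate numbers. The planned fits without each replicate and with a replicate block were not run for the same reason. Whether the wide Timp1 interval comes from the locus it shares with Araf and Syn1 was not tested.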
